A study of Arabidopsis thaliana with 16 samples.

Results

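The cell wall genes described here are those of Arabidopsis thaliana whose symbols carry the stem of a wall family followed by a number. The stems were EXPA, EXPB and EXLA (expansins), XTH (xyloglucan enzymes), CESA and CSLA to CSLG (cellulose synthases and their relatives), FLA and AGP (arabinogalactan proteins), GAUT and GATL (pectin galacturonosyltransferases), PME (pectin methylesterases) and IRX (genes first found through irregular xylem). A gene was taken where a probe set of the array was assigned to it and to no other gene. The rule found 37 probe sets for 37 genes, among 13513 probe sets with 1 gene and 22746 tested in all. Of the 18 stems, 10 had a member: EXPA with 10 genes, XTH with 9, EXPB and CSLC with 4 each, EXLA with 3, CSLA and IRX with 2 each, and CSLD, GAUT and PME with 1 each. No gene with a CESA, FLA, AGP, GATL, CSLB, CSLE, CSLF or CSLG symbol is described, since no probe set with 1 gene carried such a symbol in the annotation used. The families are thus covered only as far as that annotation names their genes. Family counts, shares and medians refer to the 37 genes alone. Another 2 probe sets assigned to several genes included a matching symbol, and neither was called in any of the 6 comparisons.

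Leaves of line Columbia (ecotype Col-0) were sampled in 4 states, with 4 arrays for each state and 16 in all. Baseline leaves came from plants at their growth temperature of 22 °C. The other states lay along a temperature curve that rose by 2 °C every 10 min towards 42 °C: the photosynthetic optimum, 20% inhibition of photosynthesis from that optimum, and 30% inhibition from it. Each state was held for 20 to 30 min before sampling and a curve took 3 to 4 h, so that temperature, time on the curve and degree of inhibition cannot be told apart. All groups shared the ecotype, the 10 h photoperiod, 60% relative humidity and a light intensity of 350 µmol per square metre per second, and the labels name no mutation or transgene. The protocol gives 4 plants per species. The labels give neither the leaf temperature reached in each state nor whether 1 plant supplied more than 1 state. The 16 arrays may thus not come from 16 separate plants, and the p-values measure only the spread between these arrays. The tissue was the first fully expanded leaf, an organ whose growth is largely over.

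A growing plant wall is a network of cellulose microfibrils, hemicelluloses such as xyloglucan, and pectin. Expansins loosen the contacts between cellulose and the other polymers without cutting them, and xyloglucan endotransglucosylase/hydrolases cut and rejoin xyloglucan chains. The polymers are built by membrane enzymes: cellulose at the plasma membrane, and the backbones of xyloglucan and of mannans in the Golgi by proteins of the CSLC and CSLA families.

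Values are RMA signals on a log2 scale, so that a difference of 1 is 2-fold, and a gene is said to have risen or fallen where its adjusted p in limma was under 0.05. The brightness of a probe set depends on its probes, and levels are therefore compared between states and not between genes. In whole leaves, fewer cells of a type and less RNA per cell cannot be told apart. The leaf identity of the tissue could be checked on RCA (Rubisco activase) and PRK (phosphoribulokinase), the 2 of 5 mesophyll markers with a probe set of their own. RCA stood at 14.6 in the baseline and 14.5 at 30% inhibition, and PRK at 13.5 and 12.7. Of the 5 guard cell markers only FAMA had such a probe set (6.86 in the baseline, 6.69 at 30% inhibition). The markers of epidermis, phloem, xylem and root hair had none in the annotation used.

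One array stood apart and bears on several results. The array control for 25S ribosomal RNA read 5.55 to 6.41 in the baseline, 5.52 to 6.31 at the optimum and 8.67 to 11.4 at 30% inhibition. At 20% inhibition it read 13.0, 10.4 and 12.9 in replicates 1, 2 and 4, but 5.25 in replicate 3. In that array 6 of the 37 wall genes (16.22%) lay over 1 log2 unit outside the range of the other 3 arrays of the state, against 1.05% of all probe sets. No other array had a wall gene that far out. The 6 genes were EXLA1, EXLA2, CSLA03, CSLC04, XTH16 and XTH18, and each read higher in replicate 3. Results of the named genes at 20% inhibition are therefore given with it and, where their call or size depends on it, also without it. What set this array apart was not tested. Within states the 25S signal varied most at 20% inhibition, through this array. A fit with that signal as a covariate therefore leans on it, and is not a check separate from leaving the array out.

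Across the 4 states, 18 of the 37 genes (48.6%) varied by the F test, close to the 54% of all probe sets. The share was 60% in EXPA (6 of 10), 75% in CSLC (3 of 4) and 33.3% in both XTH (3 of 9) and EXLA (1 of 3), with 1 of 4 in EXPB and none in PME. Brightness went with it: of the 11 genes in the dimmest 25% of the signals 1 varied (9.1%), and of the 26 brighter genes 17 did (65.4%), against 13.6% and 67.4% of all probe sets in those ranges. By this measure the wall genes described here responded about as often as the rest of the array.

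In the fit to all 16 arrays more wall genes fell than rose against the baseline. At the optimum 4 wall genes fell and 0 rose against the baseline, where 16.6% of all probe sets were called, 8.14% upwards and 8.43% downwards. Without baseline replicate 2 only 1 of these falls was still called, and without baseline replicate 1 only 2 were. Those fits called 2975 and 2895 of all probe sets. Without 20% replicate 3, 4 were called lower and 4 higher. There were 4 lower and 3 higher with a trended prior or with the 25S signal as a covariate, and 5 lower and 3 higher with array weights. Of all probe sets these 4 fits called 4479, 3671, 4241 and 5214, against 3770 in the main fit. In each of the last 3 fits the genes called higher were EXLA1, XTH16 and IRX15-L. At 20% inhibition 12 fell and 0 rose against the baseline, with 43.9% of all probe sets called (18.9% up and 24.9% down). With the 25S covariate 10 were lower there and 3 higher, namely EXLA1, XTH21 and XTH33. That fit called 7997 of all probe sets in this comparison, against 9976 in the main fit. At 30% inhibition 10 fell and 2 rose, with 44.3% called (19.3% up and 24.9% down). The median change over the 37 genes was nevertheless near 0, at −0.04, −0.04 and −0.03 on the log2 scale, as it was over all probe sets (−0.03, 0.00 and −0.01). Changes of at least 2-fold were called for 6 genes at 20% inhibition, all of them falls, and for 6 at 30%, of which 4 fell and 2 rose, compared with 8.13% and 8.12% of all probe sets, and 0 at the optimum, compared with 1.29%. These comparisons share the baseline arrays.

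**Figure D1:**
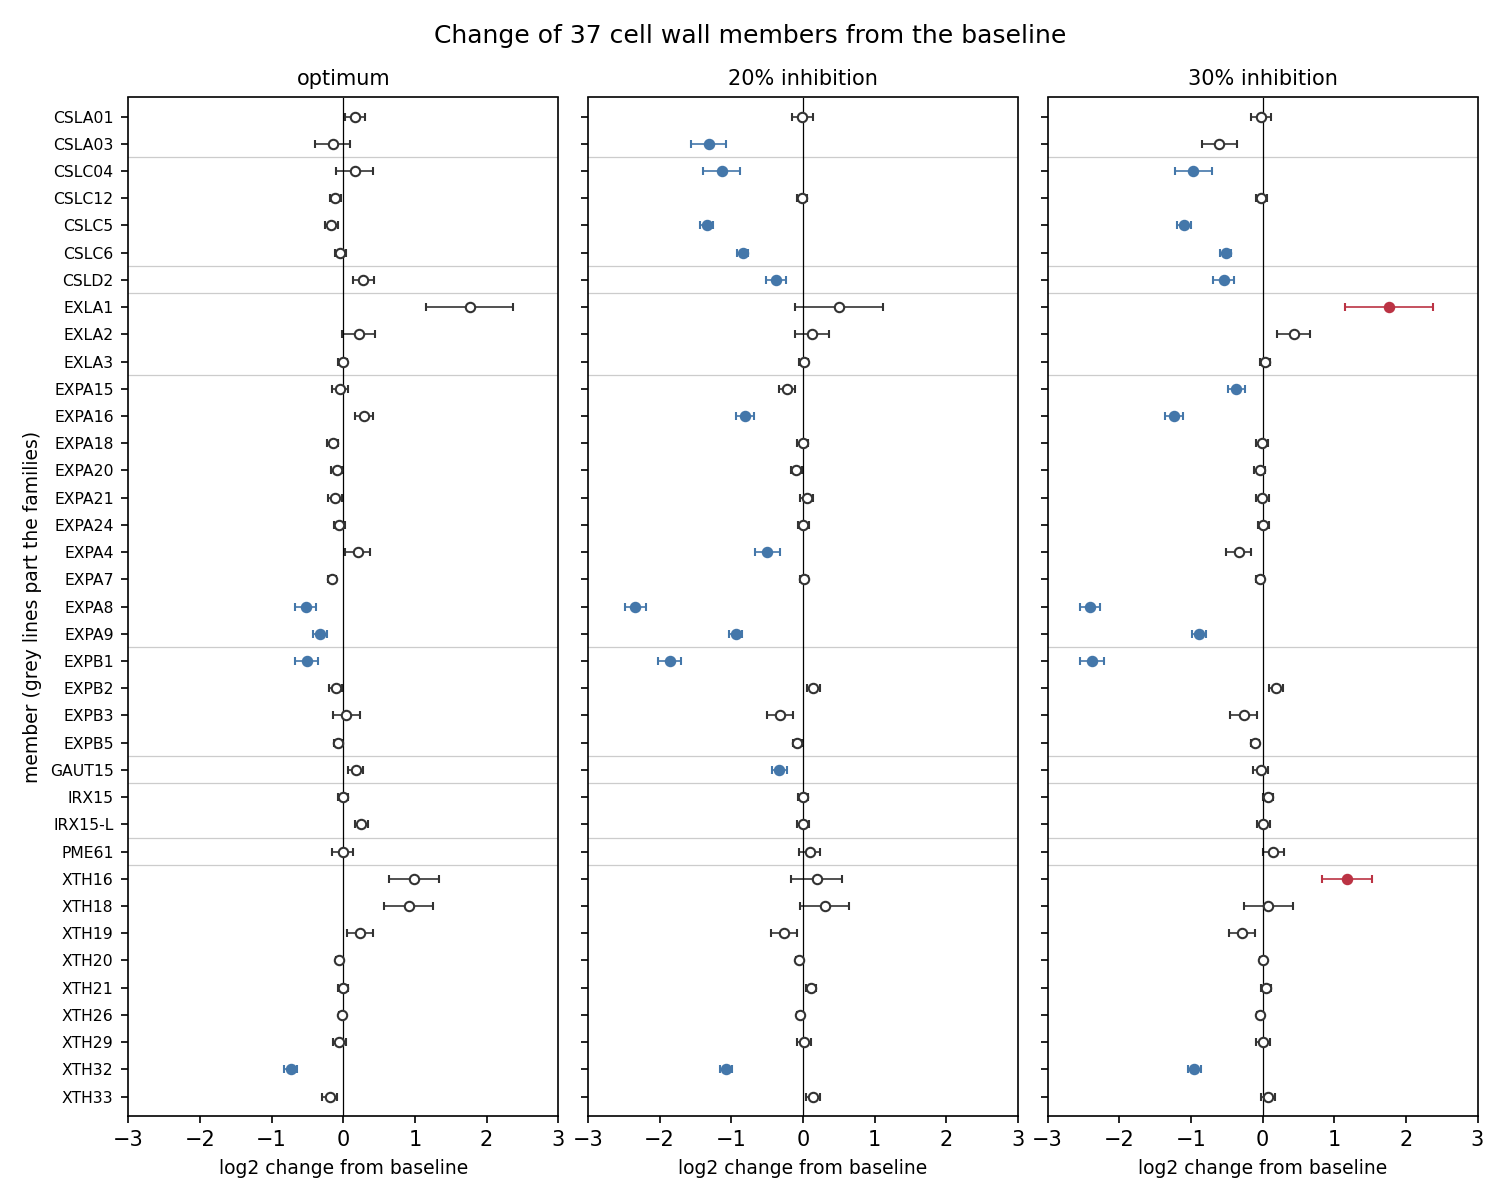
Log2 change from the baseline of each of the 37 cell wall genes at the optimum, at 20% and at 30% inhibition, grouped by family, with bars for the standard error from limma. Filled blue points are genes that fell, filled red points genes that rose and open points genes not called; EXPA8 and EXPB1 lie farthest to the left and EXLA1 farthest to the right at 30% inhibition.

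Against the optimum, 14 genes fell and 3 rose at 20% inhibition (41.7% of all probe sets called, 18.8% up and 22.9% down), and 12 fell and 2 rose at 30% (41.2% called, 18.6% up and 22.6% down). The second count, 14 in all, was 8 without 30% replicate 1 or 4 and 9 without optimum replicate 4. Of all probe sets these fits called 8919, 8757 and 8667, against 9364 with all arrays. At least 2-fold changes were called for 6 and 4 wall genes, and for 5.03% and 5.21% of all probe sets. The median change was −0.18 in the first comparison and −0.03 in the second, and 0.03 and 0.02 over all probe sets. Between 20% and 30% inhibition 1 gene rose and 1 fell, where 7.16% of all probe sets were called (4.19% up and 2.97% down), and none was called with a 2-fold change (0.361% of all). That count of 2 ran from 0, without 20% replicate 1 or 30% replicate 1 or 3, to 8 without 20% replicate 3. It was 1 without baseline replicate 2 or 4, optimum replicate 3, 20% replicate 4 or 30% replicate 2 or 4. Over all probe sets, leaving out single arrays gave 1178 to 2153 calls between the inhibited states, against 1629 with all arrays. The highest was without 20% replicate 3. Taken as steps along the curve, 4 genes changed from baseline to optimum, 17 from optimum to 20% inhibition and 2 from 20% to 30%. EXPA8, EXPA9, EXPB1 and XTH32 fell at each of the first 2 steps.

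The α-expansins loosen the wall at acid pH, and 5 of the 10 described here fell in at least 1 comparison: EXPA4, EXPA8, EXPA9, EXPA15 and EXPA16. EXPA8 (AT2G40610, chromosome 2) gave 11.25, 11.22, 11.00 and 11.07 in the baseline arrays. It gave 10.90, 10.54, 10.69 and 10.31 at the optimum. The values were 8.48, 8.78, 9.19 and 8.74 at 20% inhibition, and 8.97, 8.53, 8.55 and 8.86 at 30%. Each state from the baseline to 20% inhibition thus lay wholly below the one before it, while the inhibited states overlapped. EXPA8 fell by 0.53 ± 0.15 (SE, 4 arrays a state; adjusted p = 0.019) to the optimum, by 2.34 (adjusted p = 8e-10, 5.06-fold) to 20% inhibition and by 2.41 (5.2e-10, 5.31-fold) to 30%, all from the baseline. The first of these calls ended without baseline replicate 1 (adjusted p = 0.059), baseline replicate 2 (0.054) or optimum replicate 4 (0.074), and the larger falls ended in no alternative. The change at 20% inhibition was −2.47 ± 0.13 without replicate 3.

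EXPA16 (AT3G55500, chromosome 3) had another order of states. Its baseline arrays read 6.96, 6.92, 6.58 and 6.71, and its optimum arrays 7.35, 7.23, 6.98 and 6.78. It then read 6.08, 5.80, 6.19 and 5.88 at 20% inhibition and 5.67, 5.47, 5.67 and 5.40 at 30%. The optimum overlapped with the baseline, and both inhibited states lay below every array of either. Against the baseline the change was 0.29 ± 0.12 (SE) at the optimum (adjusted p = 0.13), and EXPA16 fell by 0.81 at 20% (3.8e-05; −0.88 without replicate 3) and by 1.24 at 30% inhibition (2.9e-07). Against the optimum it fell by 1.53 at 30% (3.7e-08). It was the one wall gene to fall from 20% to 30% inhibition (−0.43, adjusted p = 0.045), a call that ended without any 1 of 10 arrays (adjusted p 0.054 to 0.123), 20% replicate 3 among them (−0.36, adjusted p = 0.094). Array weights ended it too (0.085).

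EXPA9 read 4.91, 5.22, 5.30 and 5.11 in the baseline arrays and 4.97, 4.92, 4.66 and 4.69 at the optimum. At 20% inhibition it read 4.29, 4.06, 4.38 and 4.06, and at 30% 4.24, 4.23, 4.23 and 4.29. The inhibited states lay below the other states without overlap. It fell by 0.94 ± 0.10 (SE) at 20% (3.9e-07; −1.002 without replicate 3) and by 0.89 at 30% inhibition (7.4e-07) against the baseline. Its smaller fall to the optimum (−0.33, adjusted p = 0.026) was lost without baseline replicate 2 or 3 or optimum replicate 3 or 4 (0.076 to 0.0874).

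EXPA4 (AT2G39700, chromosome 2) read 8.19, 8.38, 8.50 and 8.22 in the baseline and 8.51, 8.46, 8.43 and 8.69 at the optimum. It read 7.79, 8.20, 7.18 and 8.13 at 20% inhibition and 7.81, 8.16, 8.18 and 7.81 at 30%. Its lowest value was that of 20% replicate 3, and in both inhibited states the arrays spread over a wider range than in the baseline. EXPA4 fell by 0.70 ± 0.17 (SE; adjusted p = 0.0034; −0.48 without replicate 3) at 20% and by 0.54 (0.018) at 30% inhibition against the optimum. The second of these calls was lost without optimum replicate 4 or 30% replicate 1 or 4 (0.0537 to 0.055). Against the baseline it fell by 0.50 at 20% (0.025), a call lost without 20% replicate 3 (−0.28, 0.067), 20% replicate 1 (0.052) or baseline replicate 2 or 3 (0.058 and 0.072). Array weights (0.075) and the 8 arrays compared (0.068) also ended this call. The change at 30% was −0.33 (0.13 with all arrays, 0.019 without 20% replicate 3).

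EXPA15 fell by 0.36 ± 0.11 (SE) from the baseline to 30% inhibition (adjusted p = 0.014, or 0.0529 without baseline replicate 3) and by 0.31 from the optimum (0.034, lost without any 1 of 6 arrays). Median centring (0.063) and repeated quantile normalisation (0.066) also ended the second call. EXPA7, a root hair expansin, was dim, between 4.59 and 4.93 over all arrays. It rose by 0.18 ± 0.06 from the optimum to 20% inhibition (0.017), a call lost without 20% replicate 3 (0.052) or optimum replicate 1 (0.0515) and with repeated quantile normalisation (0.12, adjusted p = 0.086). The other 4 α-expansins described here, EXPA18, EXPA20, EXPA21 and EXPA24, were called in none of the 6 comparisons. Their state means ran from 4.40 to 5.65. EXPA18 is also known from root hairs. Over the 10 genes the median change against the baseline was −0.10 at the optimum, −0.16 at 20% and −0.19 at 30% inhibition.

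Of the 4 β-expansins described here, relatives of the grass pollen allergens, EXPB1 (AT2G20750, chromosome 2) fell in every comparison with the baseline. Its baseline arrays gave 9.12, 9.06, 9.17 and 9.09 and its optimum arrays 8.87, 8.55, 8.78 and 8.19. The arrays gave 7.54, 7.54, 6.80 and 7.11 at 20% inhibition and 6.72, 6.51, 6.70 and 6.99 at 30%. The baseline lay above the optimum and the optimum above both inhibited states, without overlap, and 20% replicate 3 lay among the 30% arrays. EXPB1 fell by 1.86 ± 0.16 (SE; adjusted p = 5.1e-08, 3.63-fold; −1.71 without replicate 3) at 20% and by 2.38 (2.2e-09, 5.21-fold) at 30% inhibition against the baseline. Its fall of 0.51 to the optimum (0.038) was lost without any 1 of 6 arrays, namely each baseline array and optimum replicates 2 and 4 (0.067 to 0.139). From 20% to 30% it changed by −0.52 (0.062), and by −0.67 (0.0067) without 20% replicate 3.

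EXPB3 (AT4G28250, chromosome 4) differed from it. The gene read 8.32, 8.40, 8.42 and 7.84 in the baseline arrays and 8.25, 8.29, 7.99 and 8.61 at the optimum. It read 7.88, 8.15, 7.53 and 8.13 at 20% and 7.70, 8.42, 8.13 and 7.66 at 30% inhibition. All 4 states overlapped and no comparison was called, with changes of −0.32 ± 0.19 (SE; adjusted p = 0.18) at 20% and −0.26 (0.29) at 30% against the baseline. EXPB2 rose by 0.25 ± 0.10 at 20% (0.044) and by 0.29 at 30% (0.021) against the optimum, calls lost without any 1 of 8 arrays and any 1 of 3 arrays, respectively. The first call of EXPB2 was also lost with a trended prior (0.052) and on the 8 arrays compared (0.079). With the 25S signal as a covariate its changes were 0.10 (0.58) and 0.16 (0.35). That signal overlaps with the state, and its part in this and the later results was not tested. EXPB5 was not called in any comparison and stood between 4.18 and 4.29 in all states.

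**Figure D2:**
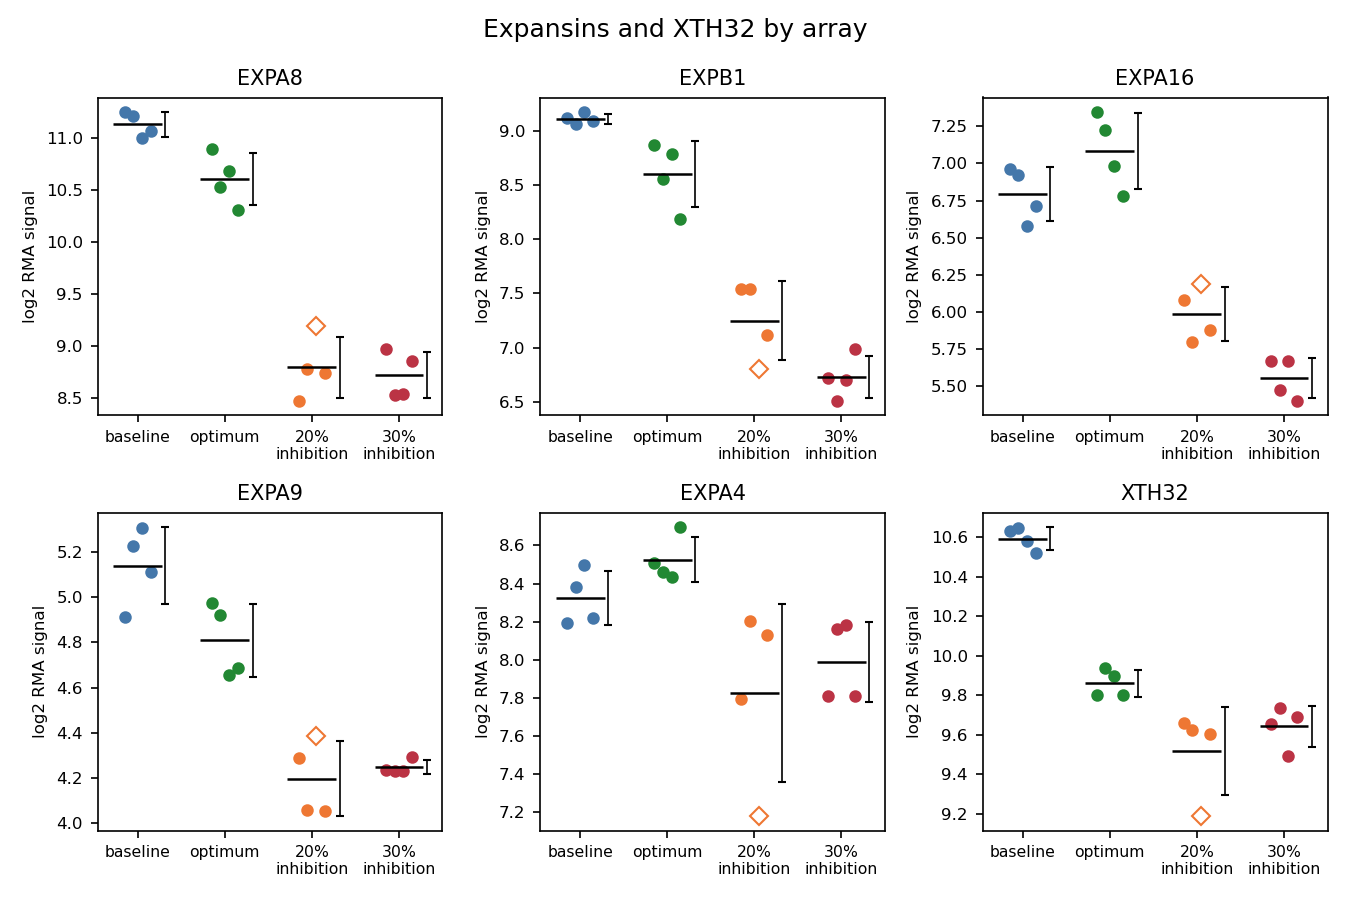
Log2 RMA signal in each array for 5 expansins (EXPA8, EXPB1, EXPA16, EXPA9, EXPA4) and XTH32, with 4 arrays a state, the mean as a black line and the standard deviation as a bar beside it; each panel has its own axis. The open diamond is 20% inhibition replicate 3, which lay within 1 log2 unit of the range of the other 3 arrays in all 6 panels.

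Among the 9 xyloglucan endotransglucosylase/hydrolases described here, XTH32 and XTH16 moved in opposite directions. XTH32 (AT2G36870, chromosome 2) gave 10.63, 10.64, 10.58 and 10.52 in the baseline and 9.80, 9.94, 9.90 and 9.80 at the optimum. It gave 9.66, 9.63, 9.19 and 9.60 at 20% inhibition and 9.66, 9.73, 9.49 and 9.69 at 30%. The optimum arrays lay below all baseline arrays and above all inhibited arrays. XTH32 fell by 0.73 ± 0.09 (SE; adjusted p = 2.5e-05) at the optimum, by 1.07 (2.9e-08) at 20% and by 0.95 (1.2e-07) at 30% inhibition. The change at 20% was −0.96 ± 0.06 (2.2e-09) without replicate 3, no longer 2-fold. It was the one wall gene whose call at the optimum ended in none of the 25 alternative fits at the same threshold, though its fall there was under 2-fold. It fell further from the optimum to 20% inhibition (−0.34, 0.0054; −0.23 without replicate 3), while the change from the optimum to 30% was −0.22 (0.061, or 0.0067 without 20% replicate 3).

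XTH16 (AT3G23730, chromosome 3) read 5.79, 6.30, 7.26 and 6.15 in the baseline arrays and 7.15, 7.51, 6.98 and 7.81 at the optimum. It read 5.90, 6.08, 7.74 and 6.54 at 20% inhibition and 7.52, 7.90, 7.64 and 7.15 at 30%. Baseline replicate 3 and 20% replicate 3 were high for their states and overlapped with the optimum and 30% arrays. XTH16 rose by 1.18 ± 0.35 (SE; adjusted p = 0.011, 2.26-fold) from the baseline to 30% inhibition. The changes were 0.99 (0.065) at the optimum and 0.19 at 20% inhibition. Without 20% replicate 3 they were 0.99 (0.013) and −0.20, and XTH16 was then called higher at 30% than at 20% inhibition (1.38 ± 0.28, adjusted p = 0.0044) and lower at 20% than at the optimum (−1.19, 0.0026).

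XTH18 and XTH19 are neighbours on chromosome 4 with no protein-coding gene between them, and both are known mainly from roots. Both were among the genes in the dimmest 25% of the signals. XTH18 stood between 3.80 and 3.98 in the baseline and 3.95 and 4.06 at 30% inhibition. It spread over 5.96, 3.80, 4.46 and 5.03 at the optimum, and read 5.14 in 20% replicate 3 against 3.82 to 4.00 in the other 3 arrays. It was called in none of the 6 comparisons (0.91 ± 0.34 at the optimum, adjusted p = 0.08), although without 20% replicate 3 that change of 0.91 was called (0.034), as were changes from the optimum of −0.92 at 20% (0.026) and −0.83 at 30% (0.027). XTH19 fell by 0.49 ± 0.18 at 20% (0.038) and by 0.52 at 30% inhibition (0.031) against the optimum, calls lost without any 1 of 6 and any 1 of 5 arrays, respectively. The first call of XTH19 was also lost with median centring (0.053) and on the 8 arrays compared (0.115). Its change at 20% without replicate 3 was −0.70 (0.00074) against the optimum and −0.48 (0.011), then called, against the baseline. With the 25S covariate the first changes were −0.14 (0.67) and −0.20 (0.52).

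XTH33 rose by 0.34 ± 0.10 (SE) at 20% (adjusted p = 0.012, or 0.23 and 0.035 without replicate 3) and by 0.27 at 30% (0.038) against the optimum. The latter call was lost without any 1 of 6 arrays or with repeated quantile normalisation (0.056). XTH20, XTH21, XTH26 and XTH29 were not called in any comparison, with state means between 4.09 and 4.56. Over the 9 XTH genes the median change against the baseline was −0.02 at the optimum, 0.01 at 20% and 0.01 at 30% inhibition.

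The 3 expansin-like A genes encode proteins related to expansins whose activity on the wall is not established. EXLA1 (AT3G45970, chromosome 3) showed the widest spread of the wall genes within a state. It gave 6.40, 6.50, 6.40 and 7.26 in the baseline and 8.62, 7.62, 8.64 and 8.73 at the optimum. It gave 6.07, 6.18, 9.95 and 6.37 at 20% inhibition and 8.27, 8.26, 8.79 and 8.30 at 30%. Apart from 20% replicate 3, the arrays formed a low pair of states, the baseline and 20% inhibition, and a high pair, the optimum and 30% inhibition, with no overlap between the pairs.

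With all arrays EXLA1 rose by 1.77 ± 0.61 (SE; adjusted p = 0.026, 3.40-fold) from the baseline to 30% inhibition, a call lost without baseline replicate 1 (0.06), 2 (0.057) or 3 (0.059) or 30% replicate 3 (0.066). The change was 1.76 (0.06) at the optimum and 0.505 (0.56) at 20% inhibition. Without 20% replicate 3 the standard error of the change at 20% inhibition fell to 0.24, and the changes from the baseline were 1.76 at the optimum (4.0e-05), −0.43 at 20% (0.18) and 1.77 at 30% (5.4e-06). EXLA1 was then called lower at 20% inhibition than at the optimum (−2.19, 1.8e-06, 4.57-fold) and higher at 30% than at 20% (2.20, 2e-05, 4.58-fold).

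EXLA2 read 5.50, 5.38, 6.67 and 5.51 at 20% inhibition and 5.90, 5.98, 6.54 and 5.87 at 30%. It was not called in any comparison with all arrays, but without 20% replicate 3 it was called higher at 30% inhibition than at 20% (0.61, adjusted p = 0.019) and than in the baseline (0.44, 0.020). EXLA3, the gene next to EXLA1 on chromosome 3, stood between 4.16 and 4.20 in all 4 states and was called in none of the comparisons.

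**Figure D3:**
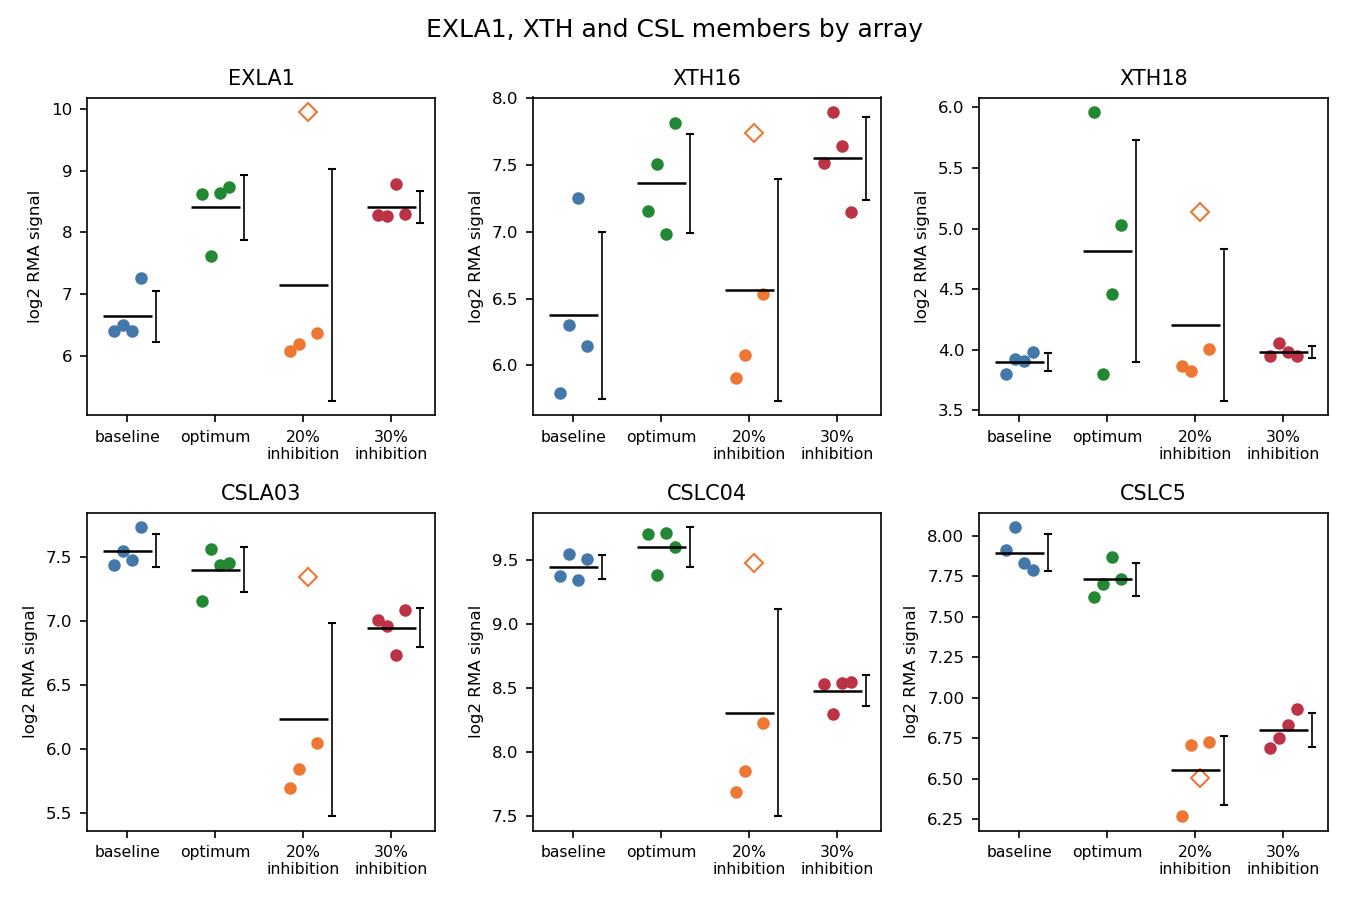
Log2 RMA signal in each array for EXLA1, XTH16, XTH18, CSLA03, CSLC04 and CSLC5, with 4 arrays a state, the mean as a black line and the standard deviation as a bar beside it; each panel has its own axis. The open diamond, 20% inhibition replicate 3, lies over 1 log2 unit above the other 3 arrays of its state in every panel but that of CSLC5.

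The CSLC family makes the glucan backbone of xyloglucan. Of the 4 CSLC genes described here, CSLC04, CSLC5 and CSLC6 fell in both inhibited states, and none changed at the optimum. Of all probe sets 24.9% were called lower than in the baseline in each inhibited state, and the share lower in both is not given. CSLC5 (AT4G31590, chromosome 4) gave 7.91, 8.05, 7.83 and 7.78 in the baseline and 7.62, 7.70, 7.87 and 7.73 at the optimum. It gave 6.27, 6.71, 6.51 and 6.73 at 20% and 6.69, 6.75, 6.83 and 6.93 at 30% inhibition. All inhibited arrays, 20% replicate 3 included, lay below all others. CSLC5 fell by 1.34 ± 0.09 (SE, adjusted p = 4e-09) at 20% and by 1.09 (4.9e-08) at 30% inhibition against the baseline. These calls ended in none of the 25 alternative fits at the same threshold.

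CSLC6 read 7.16, 7.37, 7.36 and 7.23 in the baseline and 7.33, 7.09, 7.26 and 7.28 at the optimum. At 20% inhibition it read 6.32, 6.50, 6.43 and 6.52, and at 30% 6.92, 6.74, 6.81 and 6.59. The 30% arrays lay between those at 20% and those of the other states, with no overlap. CSLC6 fell by 0.84 ± 0.08 (SE) at 20% (1.3e-07) and by 0.52 at 30% (3.5e-05) against the baseline. It was the one wall gene that rose from 20% to 30% inhibition with all arrays (adjusted p = 0.018, 0.33 on the log2 scale), and this call was lost without 20% replicate 1 (0.061) or 30% replicate 1 or 3 (0.06 and 0.0504). The 8 arrays compared ended it too (0.06).

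CSLC04 (AT3G28180, chromosome 3) gave 9.38, 9.55, 9.35 and 9.51 in the baseline arrays and 9.71, 9.39, 9.71 and 9.61 at the optimum. It gave 7.69, 7.85, 9.48 and 8.23 at 20% and 8.53, 8.30, 8.54 and 8.55 at 30% inhibition. The array 20% replicate 3, whose 25S signal of 5.25 was below that of every baseline array, had a CSLC04 signal within the baseline range, while the other 7 inhibited arrays lay below all 8 others. CSLC04 fell by 1.14 ± 0.26 (SE; adjusted p = 0.0015) at 20% and by 0.97 (0.0053) at 30% inhibition against the baseline. Its change at 20% was −1.52 ± 0.11 without replicate 3, and CSLC04 was then called higher at 30% than at 20% (0.56, 0.0041). With the 25S signal as a covariate the changes were −0.35 (0.26) and −0.26 (0.40), and the calls against the optimum were lost too (−0.53, 0.087, and −0.43, 0.14). That fit leans on 20% replicate 3 and is not a check separate from it. CSLC12 was not called, and stood between 4.25 and 4.35 in all states.

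**Figure D4:**
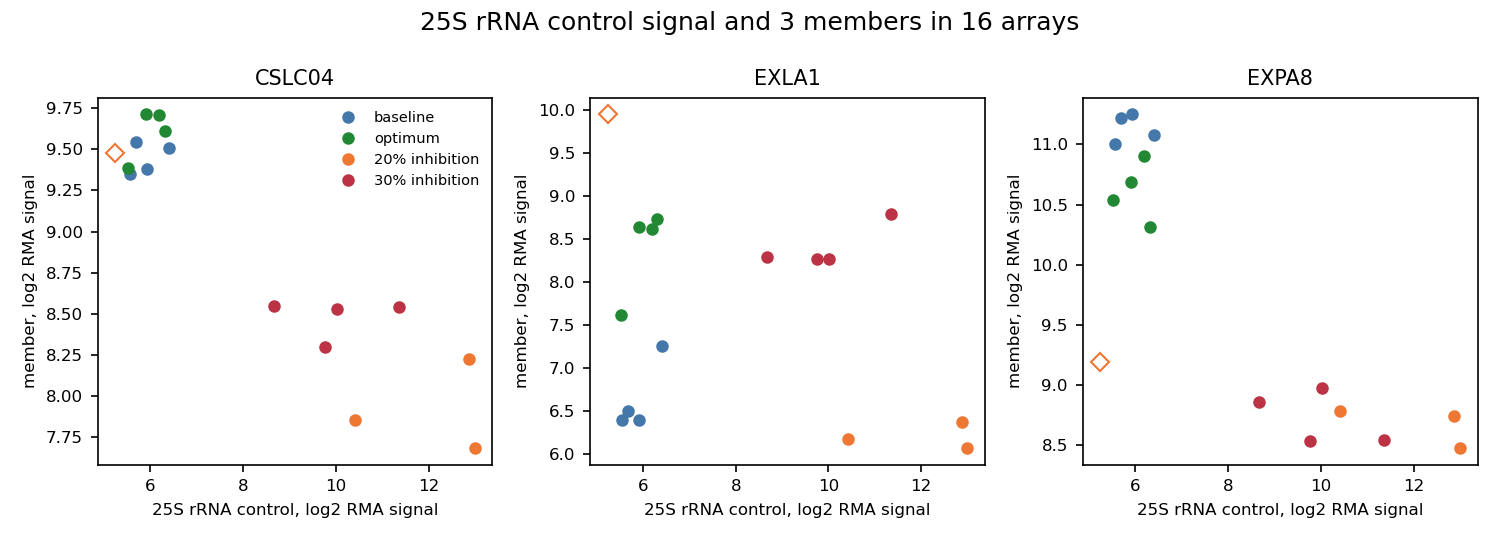
Log2 signal of CSLC04, EXLA1 and EXPA8 in each of the 16 arrays against the log2 signal of the 25S ribosomal RNA control of the same array, coloured by state. The open diamond is 20% inhibition replicate 3, whose control signal of 5.25 lies below those of all baseline and optimum arrays; its CSLC04 signal (9.48) lies within the range of theirs, while its EXPA8 signal (9.19) lies near those of the other inhibited arrays.

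CSLA proteins make the backbone of mannans. CSLA03 (AT1G23480, chromosome 1) read 7.44, 7.55, 7.48 and 7.73 in the baseline and 7.16, 7.57, 7.44 and 7.46 at the optimum. It read 5.70, 5.84, 7.35 and 6.05 at 20% and 7.01, 6.96, 6.73 and 7.09 at 30% inhibition. In 3 of the 4 arrays at 20% it lay below every other array, and 20% replicate 3 lay with the optimum. CSLA03 fell by 1.32 ± 0.25 (SE; adjusted p = 0.00029) at 20% against the baseline, and changed by −0.60 (0.058) at 30%. Without 20% replicate 3 these changes were −1.69 ± 0.11 (1.6e-09) and −0.60 (9.45e-05), and CSLA03 was called higher at 30% than at 20% inhibition (1.09, 6.9e-06). Its fall of 1.17 from the optimum to 20% (0.0011) became −0.36 (0.13) with the 25S covariate. CSLA01 was called in no comparison, with state means from 4.89 to 5.08.

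CSLD2, which acts in the growth of root hair walls, read 6.84, 6.95, 6.79 and 7.26 in the baseline and 7.10, 7.16, 7.20 and 7.51 at the optimum. Its values were 6.24, 6.54, 6.99 and 6.58 at 20% inhibition and 6.39, 6.28, 6.65 and 6.34 at 30%. CSLD2 fell by 0.54 ± 0.14 (SE) from the baseline to 30% inhibition (0.0043) and by 0.83 from the optimum (0.00015), in both cases with no overlap. It fell by 0.37 from the baseline to 20% inhibition (0.043), a call lost without any 1 of 7 arrays (0.051 to 0.157). Median centring (0.060), repeated quantile normalisation (0.064) and the 8 arrays compared (0.079) also ended it. That change was −0.51 (0.0034) without replicate 3 of the state. With the 25S covariate the changes against the baseline were −0.14 (0.61) at 20% and −0.34 (0.15) at 30%.

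The remaining genes belong to pectin and xylan. GAUT15, of the family whose best known member builds homogalacturonan, fell by 0.33 ± 0.10 (SE) at 20% inhibition against the baseline (adjusted p = 0.016, lost without 20% replicate 2 or 4, 0.0554 and 0.0515) and by 0.51 against the optimum (0.00088). At 30% its change from the baseline was −0.03 (0.87). It read 5.99, 5.89, 6.39 and 5.93 at 20% inhibition, replicate 3 again the highest, and without that array GAUT15 was called higher at 30% than at 20% (0.42, 0.005). With the 25S covariate its changes at 20% inhibition were −0.17 (0.39) and −0.35 (0.062). PME61, a pectin methylesterase, was called in no comparison, with state means from 6.75 to 6.91. IRX15 and IRX15-L take part in xylan synthesis in secondary walls. IRX15 was not called in any comparison (state means 4.76 to 4.84). IRX15-L fell by 0.25 ± 0.09 at 20% (0.027) and by 0.24 at 30% (0.031) against the optimum, calls lost without any 1 of 3 arrays, 20% replicate 3 among them (−0.22, 0.069), and any 1 of 4 arrays, respectively. Median centring ended both calls (0.087 and 0.068). The second was also lost with the replicate number as a block (0.055) and on the 8 arrays compared (0.078).

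Leaving out 20% replicate 3 moved the count of wall genes called between 20% and 30% inhibition from 1 up and 1 down to 7 up and 1 down, where 9.47% of all probe sets were called (5.83% up and 3.64% down). The 7 were CSLA03, CSLC04, CSLC6, EXLA1, EXLA2, GAUT15 and XTH16, and the gene called lower was EXPB1. At the optimum against the baseline the same step added 4 genes called higher (EXLA1, XTH16, XTH18 and IRX15-L) to the 4 that fell, with 19.7% of all probe sets called (9.72% up and 9.97% down). There the level differences are the same arrays' as before, and only the shared estimate of the spread changed. At 20% inhibition against the baseline the counts became 12 lower and 1 higher, the latter EXPB2 (0.24, adjusted p = 0.039), with 44.1% of all probe sets called (18.7% up and 25.4% down). At 30% inhibition they became 12 lower and 3 higher, with 46.3% called (20.2% up and 26.1% down). Against the optimum they became 16 lower and 3 higher at 20% inhibition, with 41.3% called (17.8% up and 23.4% down), and 16 lower and 2 higher at 30%, with 43.4% called (19.6% up and 23.8% down).

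Genes that work beside these families were looked up by locus. In the annotation used, 7 of 106 such loci had a probe set of their own, and another 5 genes carried a matching symbol only as a synonym. It gave none to the listed pectin enzymes, hemicellulose enzymes, nucleotide sugar genes or secondary wall regulators. Since it listed no gene for 8730 probe sets, this is a limit of the annotation and need not be one of the array. Of the 12 together, 6 fell and 0 rose at 20% inhibition, and 3 fell and 0 rose at 30%, against the baseline. These are 50% and 25% of the 12, beside 43.9% and 44.3% of all probe sets called, with 24.9% called lower in each comparison. The counts without 20% replicate 3 were 9 lower at 20%, and 5 lower and 1 higher at 30%, or 75% and 50% of the 12. In that fit 44.1% of all probe sets were called at 20% (18.7% up and 25.4% down). At 30% it was 46.3% (20.2% up and 26.1% down). EXGT-A3 (synonym XTH27), a further xyloglucan enzyme, fell by 1.12 ± 0.35 (SE; adjusted p = 0.015) at 20% inhibition. Its baseline arrays read 10.20, 10.19, 10.03 and 10.32 and its 20% arrays 8.37, 8.52, 10.70 and 8.70, so that replicate 3 was again above the other 3, and above the baseline. Its change was −1.66 ± 0.12 (7.1e-09) without replicate 3.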

How the data were processed

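The authors deposited log2 signals per probe set, normalised with RMA, per the submitters' processing notes, which also list limma and give no versions. RMA subtracts background, equalises the arrays' distributions and summarises probes, so signals are relative within an array, and equalising can hide a shift shared by most transcripts. RNA came from 100 mg of leaf tissue and 6 µg of it was labelled. Signals ran from 3.25 to 14.7, and the number of arrays limits the precision. No scaling, filter or pseudocount was added. Of 22810 probe sets, 64 controls were left out.

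In R 4.3.3 with limma 3.58.1, 4 group means were fitted to 16 arrays (lmFit, eBayes, 12 residual degrees of freedom). The 6 comparisons were tested 2-sided, adjusted (Benjamini-Hochberg) over all 22746 probe sets and called under 0.05. The F test over the states was treated likewise. The fit was tested on simulated data.

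Names came from the array annotation, updated by locus through RefSeq (assembly TAIR10.1), used for names and neighbours and not for coordinates. The annotation listed 503 probe sets with several genes and 8730 with none. All 37 genes were named. Each array's values were given for EXPA4, EXPA8, genes called with a change of at least 1 on the log2 scale, and in families of at least 3 genes the one that changed most at 30% inhibition and the brightest; those of other genes were added after their values were seen. The members and lists were chosen with earlier results of these data known. Promoter and protein sequences were not used here.

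Alternatives were a trended prior, the 8 arrays compared, dropping the dimmest 33.3% of probe sets, median centring, repeated quantile normalisation, array weights, the 25S control as covariate, dropping single arrays, a block for the replicate number, synonyms, and stricter thresholds. Same-numbered arrays of different states did not deviate together: 5 of 24 such pairs correlated over 0.1 (range −0.36 to 0.31), so the numbers were not taken as pairing.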

Additional observations from a re-analysis of the deposited data

Results flagged for a closer look

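In 148 sets of 4 arrays (37 genes in 4 states), 10 had 1 array far from the other 3 by Dixon's criterion. That is not far above the share of about 5% of such sets that chance gives. The rate over all probe sets is not given, so the list shows no excess among the wall genes. EXLA1 was marked in all 4 states: baseline replicate 4 read 7.26 (6.40 to 6.50 in the others), optimum replicate 2 read 7.62 (8.62 to 8.73), 20% inhibition replicate 3 read 9.95 (6.07 to 6.37) and 30% inhibition replicate 3 read 8.79 (8.26 to 8.30). EXLA2 was marked in 20% replicate 3 (6.67, others 5.38 to 5.51) and in 30% replicate 3 (6.54, others 5.87 to 5.98). XTH18 in 20% replicate 3 read 5.14 (others 3.82 to 4.00). XTH32 in the same array read 9.19, lower than the others (9.60 to 9.66). CSLC04 read 8.30 in 30% replicate 2 (8.53 to 8.55 in the others), and EXPA9 read 4.29 in 30% replicate 4 (4.23 to 4.24). Of the 10 arrays marked, 4 were 20% inhibition replicate 3.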

How the results depend on the processing

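Over 1782 alternative values for 66 changes of the 11 genes given in full, 1654 kept direction and side of the threshold, 58 lost and 52 gained a call, and 18 turned sign, none of them called. At 2-fold and adjusted p under 0.05 the calls were 0 at the optimum, 6 at 20% and 6 at 30% inhibition against the baseline, 6 and 4 against the optimum and 0 between the inhibited states. At adjusted p under 0.01 they were 1 for the optimum against the baseline, 8 for 30% against the optimum and 0 between the inhibited states. No count over all probe sets is given at this threshold, so these counts cannot be set beside the rest of the array. The optimum count of 4 was 7 with the trended prior, 8 with array weights and 7 with the 25S covariate. Of all probe sets these fits called 3671, 5214 and 4241, against 3770 in the main fit. The count of 2 between the inhibited states was 6 with array weights and 1 on 8 arrays. These fits called 1854 and 915 of all probe sets, against 1629 in the main fit. Leaving out each array gave 1 to 8 at the optimum, 10 to 13 and 10 to 15 against the baseline at 20% and 30%, 14 to 19 and 8 to 18 against the optimum, 0 to 8 between the inhibited states and 14 to 21 for the F test. The lowest and highest were 1 without baseline replicate 2 and 8 without 20% replicate 3 at the optimum (2 without baseline replicate 1), 8 without 30% replicate 1 or 4 (9 without optimum replicate 4), and 0 without 20% replicate 1 or 30% replicate 1 or 3. Over all probe sets, leaving out each array gave 2710 to 4479 calls at the optimum. It gave 9126 to 10040 and 9301 to 10528 against the baseline at 20% and 30%. Against the optimum it gave 8363 to 9473 and 8498 to 9868, and 1178 to 2153 between the inhibited states. With the replicate number as a block the counts of wall genes were 5, 12, 12, 17, 14 and 2, and 16 for the F test. In the 6 comparisons that fit called 3568, 9815, 9901, 9238, 9173 and 1440 of all probe sets. For the F test no count over all probe sets is given in the block fit or in those leaving out each array. The replicate numbers are not known to pair the arrays. The calls of EXPB1 at the optimum (0.053) and of IRX15-L at 30% inhibition against the optimum (0.055) were lost with the block.

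Signs turned as follows. With the 25S covariate CSLA03 at 30% inhibition changed by 0.15 against the baseline and 0.28 against the optimum, and EXLA1 by 0.50 from the optimum to 20%. With array weights EXLA1 changed by −0.040 at 20% against the baseline, and EXPA4 by −0.018 and EXPB3 by −0.051 between the inhibited states. Leaving out each array gave EXLA1 −0.43 (without 20% replicate 3) to 0.86 and XTH16 −0.20 (without 20% replicate 3; −0.0031 without baseline replicate 1) to 0.49 at 20% against the baseline. From the optimum to 30% EXLA1 ran from −0.26 (without optimum replicate 2; −0.13 without 30% replicate 3) to 0.11. At the optimum EXPB3 ran from −0.092 (without baseline replicate 4; −0.066 without optimum replicate 4) to 0.14. Between the inhibited states the ranges were −0.038 (without 20% replicate 1) to 0.56 for CSLC04, −0.053 (without 20% replicate 3) to 0.29 for EXPA4, −0.18 to 0.061 (without 20% replicate 3) for EXPA8, and −0.091 (without 30% replicate 2; −0.074 without 20% replicate 3) to 0.16 for EXPB3. The cause was not tested. Centring the arrays moved the share of called probe sets that were higher from 45% to 62.1% for 20% inhibition against the optimum and from 58.5% to 46.4% between the inhibited states. The wall genes were then 4 higher and 12 lower, and 1 and 1. Of all probe sets the centred fit called 11476 and 1627 in these comparisons, against 9477 and 1629 in the main fit. One probe set a gene changed nothing, since each gene had 1.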

Other observations

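Among the genes looked up beside the wall families, 4 are given here that were chosen after their values were seen. COB, the COBRA protein that acts in oriented cellulose deposition, fell by 0.81 ± 0.09 (SE, 4 arrays a state; adjusted p = 6.1e-07) at 20% and by 0.58 (2.6e-05) at 30% inhibition against the baseline. Its change at 20% was −0.90 without replicate 3. ATCSLC08, which matched only as a synonym, fell by 0.80 (6.7e-07; −0.83 without replicate 3) at 20% and by 0.56 (3.9e-05) at 30%. HCT, an enzyme of lignin precursor synthesis, fell at the optimum already (−0.38, adjusted p = 0.004), and by 0.95 and 0.99 in the inhibited states (−1.01 at 20% without replicate 3). THE1, a receptor kinase that senses wall damage, read 9.16 in 20% replicate 3 and 6.71 to 6.95 in the other arrays of that state.

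The array 20% inhibition replicate 3 correlated over all probe sets at 0.9902 with the mean of the other 20% arrays and at 0.9905 with the 30% mean, against 0.9487 with the baseline mean. The other 20% arrays correlated at 0.9957 to 0.9971 with their own state. EXPA8, EXPB1, EXPA16, EXPA9 and CSLC5 in that array lay below every baseline array, whereas EXLA1 and XTH16 lay above every baseline array.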
